A study of Mus musculus with 8 samples.

Results

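Voltage-gated sodium channel and voltage-gated calcium channel genes were examined in colon cells sorted as enteric neurons, which form the intrinsic nervous system of the gut. Members were chosen by symbol: the sodium channel alpha and beta subunit genes (Scn), and the calcium channel alpha1 (Cacna1), alpha2delta (Cacna2d), beta (Cacnb) and gamma (Cacng) subunit genes. This gave 40 of the 55414 genes in the count table, 14 of them sodium and 26 calcium channel genes. Of these, 20 encode pore-forming subunits (10 sodium alpha, 10 calcium alpha1) and 20 encode auxiliary subunits (4 sodium beta, 4 alpha2delta, 4 calcium beta, 8 gamma). The libraries compare wild-type (WT) mice with Emb knockdown mice, 4 libraries each, all from colon at 4 weeks of age. The targeted gene, Emb, encodes embigin, a cell-surface protein with immunoglobulin domains. In both groups, enzymatically released cells were sorted on CD24 and CD56 staining into lysis buffer, about 250 cells a tube. Smart-seq chemistry, which amplifies RNA from very small inputs, gave the libraries. The sources used here do not give how the knockdown was made or in which cells it acts. The labels name 4 mice of each genotype but do not tie a tube to a mouse; p-values therefore measure only library-to-library spread, which may be technical.

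Voltage-gated sodium channels open on depolarisation and carry the inward current that starts the action potential. Their alpha subunit forms the pore, and their beta subunits, single-pass proteins with an immunoglobulin-like domain, change gating and placement in the membrane. Voltage-gated calcium channels turn depolarisation into calcium entry, which drives transmitter release, contraction and gene regulation. Their alpha1 subunit forms the pore, the alpha2delta and beta subunits bring it to the membrane and tune it, and the gamma family includes proteins that instead escort AMPA-type glutamate receptors. In the gut wall, sodium channels carry the fast spikes of enteric neurons, N-type calcium channels serve their transmitter release, and L-type channels serve contraction of smooth muscle.

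Total counts were 698930 to 954191 in the WT libraries and 2024372 to 2712754 in the Emb knockdown libraries, and ribosomal RNA genes took 8.72% ± 4.00 and 36.5% ± 5.53 of them (SD, n = 4 each). Values are TMM-normalised CPM (counts per library total, scaled in edgeR). The sort label was checked on 13 neuron marker genes: their summed level was 266 to 457 CPM in WT and 224 to 530 CPM in Emb knockdown, and none was at 0 in all 8 libraries. Of these 13 genes, only Elavl3 lay above the background described below in all 8 libraries, and 7 lay above it in none, among them Snap25, Stmn2, Tubb3 and Elavl4. Of the glial markers, 4 are reported here, and summed to 82.9 to 189 CPM in WT and 143 to 1339 CPM in Emb knockdown. Only 1 of these 4, Gfap, an intermediate filament gene of glia, was above background in all 8 libraries. Sox10 was above it in 2 WT and 4 Emb knockdown libraries, S100b in 1 and 3, and Entpd2 in 2 and 4. Most defining markers of the labelled cell type were thus near background, and the cells are called sorted colon cells here. Macrophage markers (7 genes) summed to 1493 to 4021 CPM in WT and 4034 to 6103 CPM in Emb knockdown. Endothelial markers (3 genes) summed to 354 to 2036 CPM in WT and 154 to 1419 CPM in Emb knockdown. Among them Pecam1 was above background in all 8 libraries. Fibroblast markers (5 genes) summed to 61.8 to 168 and 144 to 433 CPM, and epithelial markers (5 genes) to 150 to 308 and 58.3 to 173 CPM. Emb itself had 4, 6, 22 and 16 counts in WT and 5, 25, 3 and 5 in Emb knockdown, in replicate order. Its edgeR log2 fold change, Emb knockdown against WT as throughout, was −1.24 ± 0.82 (SE, as for all fold changes; adjusted p = 0.529), so a lower level in the knockdown libraries was not detectable at this depth.

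Only 3 of the 40 channel genes stood clear of background in every library: Scn7a, Cacng4 and Cacna1g. Background was set by 1505 olfactory, vomeronasal and trace amine receptor genes, whose products serve smell and pheromone sensing. For each gene, the count density along its exons (counts per kilobase) was expressed as a multiple of the density of all receptor genes in that library, and the 95th percentile of single receptor genes, at multiples of 2.78 to 3.33 in WT and 2.70 to 3.41 in Emb knockdown, served as the mark. In WT 21 of the 40 channel genes passed that mark in no library, and in Emb knockdown 17 passed it in none. The median channel gene lay at 1.42 (WT) and 1.90 (Emb knockdown) times background, beside 0.930 ± 0.192 and 1.57 ± 0.144 times (SD, n = 4 each) for the median protein-coding gene. Per exonic kilobase the order at the top was Cacng4 (418 ± 208 CPM in WT and 515 ± 332 in Emb knockdown), then Scn7a (112 ± 21.5 in WT and 347 ± 107 in Emb knockdown). Among the other pore-forming genes Cacna1g had the highest WT mean, 10.7 CPM per kilobase (5.03 in Emb knockdown), and the rest lay below 10 in both groups.

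**Figure D1:**
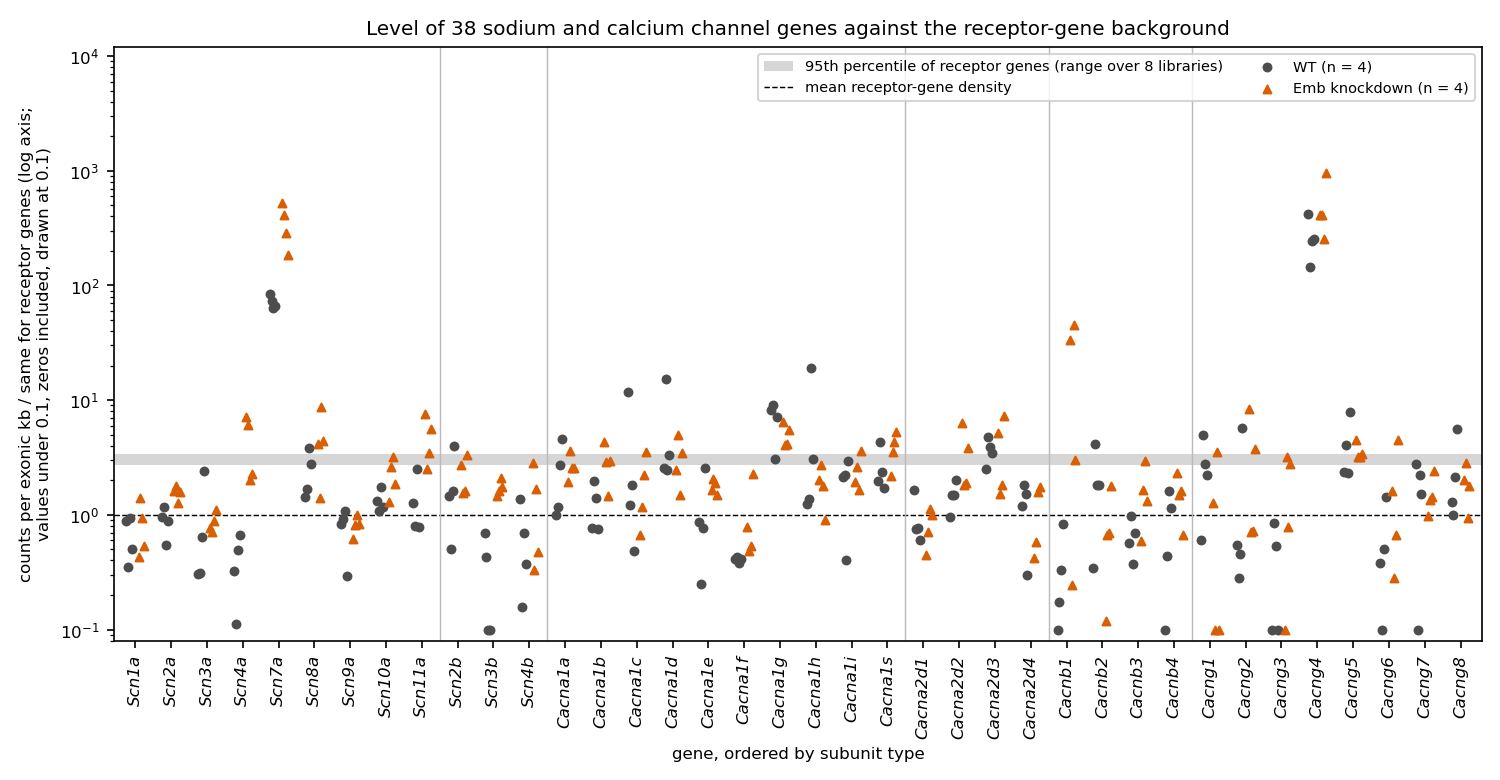
Counts per exonic kilobase of 38 of the 40 channel genes divided by the same density of receptor genes (log axis), for 4 WT libraries (circles) and 4 Emb knockdown libraries (triangles); the dashed line is the mean receptor density and the grey band the range of its 95th percentile. Scn7a (63.5 to 84.4 times in WT, 185 to 524 times in Emb knockdown) and Cacng4 (145 to 417 and 252 to 956 times) stand far above the band in every library, and most other genes lie within or below it in most libraries.

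Of the 40 genes, 30 had enough counts to be tested (13 sodium, 17 calcium), and none passed an adjusted p of 0.05 with edgeR, as none of all 11353 genes tested did (0%; 1508 had an unadjusted p under 0.05). The lowest adjusted p among the channel genes was 0.294. At an unadjusted p under 0.05, edgeR gave 2 channel genes higher in Emb knockdown (Scn4a and Scn7a, beside 8.64% of all genes) and 1 lower (Cacna1h, beside 4.64%). The 3 of 30 in all stand beside 13.3% of all genes, so the family was not set apart by this count. DESeq2 on the same genes gave an adjusted p under 0.05 to the same 2 higher genes, Scn4a and Scn7a, and to 683 of the 8315 genes for which it gave an adjusted p (8.21%). In 2 of 30 channel genes, again Scn4a and Scn7a, the groups did not overlap with Emb knockdown higher (4.03% of all genes), and in 0 with Emb knockdown lower (4.25%), together beside 8.28% of all genes. Scn4a entered these counts through its Emb knockdown libraries, as given with its values. In these bulk libraries of pooled cells, fewer cells of a type and less RNA per cell cannot be told apart.

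Per exonic kilobase Scn7a was the most abundant sodium channel pore gene in every library, and its level was higher in every Emb knockdown library than in every WT library. It encodes Nax, an alpha-like subunit that responds to extracellular sodium rather than chiefly to voltage and is known from glia and Schwann cells. Its counts were 819, 692, 937 and 521 in WT and 4865, 5494, 4785 and 2290 in Emb knockdown. As CPM these were 1054, 795, 713 and 732, against 3241, 2913, 2586 and 1435. The WT libraries lay close together, the Emb knockdown libraries spread more widely, and the lowest of them, replicate 4, still exceeded the highest WT library. Means were 824 ± 157 CPM in WT and 2544 ± 786 CPM in Emb knockdown (SD, n = 4 each). Its log2 fold change was 1.63 ± 0.58 (SE), with a 95% interval of 0.36 to 2.89, an unadjusted p of 0.0159 and an adjusted p of 0.311 by edgeR, so the difference was not called. DESeq2 gave an adjusted p of 0.00465. Leaving out each library in turn kept the log2 fold change between 1.498 and 1.84, and scaling by library totals alone gave 0.91.

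Markers of other cells were read beside this result. Of the 4 glial markers reported here, all had positive estimates, none passed the adjusted p with edgeR and all overlapped between groups. Sox10, a glial transcription factor gene, was at 15.9 ± 9.10 CPM in WT and 33.4 ± 11.3 CPM in Emb knockdown, and Gfap at 82.4 ± 30.0 and 147 ± 77.4 CPM (SD, n = 4 each). S100b was at 3.79 ± 3.51 and 53.0 ± 51.0 CPM, with 0 in Emb knockdown replicate 4. Entpd2 was at 18.1 ± 21.2 and 286 ± 444 CPM, with 949 in Emb knockdown replicate 1. The log2 fold changes of Sox10, Gfap, S100b and Entpd2 were 1.08, 0.83, 3.72 and 3.97. Of the 7 macrophage markers, 6 estimates were positive and 1 was negative, and none passed the adjusted p. C1qa was at 1485 ± 763 CPM in WT and 3937 ± 999 CPM in Emb knockdown, with every knockdown library higher, as also for Adgre1. Cx3cr1 was at 1151 ± 315 and 277 ± 300 CPM, with every knockdown library lower. Cd68 was at 15.5 ± 13.9 and 15.6 ± 14.9 CPM. The part of glial and macrophage RNA, and of the share of ribosomal RNA, in the Scn7a result was not tested.

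The promoters of the 3 sodium channel genes with the highest positive estimates, Scn7a, Scn4a and Scn11a, are shown because these genes carry the largest differences on the higher side. Each is 300 bases, 250 before and 50 after the RefSeq start on GRCm38.p6, printed 5′ to 3′ on the gene's strand. The Scn7a window is chr2:66784861-66785160 (minus strand), the Scn4a window chr11:106349341-106349640 (minus strand) and the Scn11a window chr9:119825407-119825706 (minus strand). Capitals mark matches, on either strand, to the GC box GGGCGG, the TATA box TATAAA or the E-box CAGCTG.
Scn7a: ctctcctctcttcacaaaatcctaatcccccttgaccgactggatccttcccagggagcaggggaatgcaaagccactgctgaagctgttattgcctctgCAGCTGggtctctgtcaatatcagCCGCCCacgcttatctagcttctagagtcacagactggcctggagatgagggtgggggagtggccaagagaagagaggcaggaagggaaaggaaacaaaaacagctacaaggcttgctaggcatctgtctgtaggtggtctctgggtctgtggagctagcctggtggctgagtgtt
Scn4a: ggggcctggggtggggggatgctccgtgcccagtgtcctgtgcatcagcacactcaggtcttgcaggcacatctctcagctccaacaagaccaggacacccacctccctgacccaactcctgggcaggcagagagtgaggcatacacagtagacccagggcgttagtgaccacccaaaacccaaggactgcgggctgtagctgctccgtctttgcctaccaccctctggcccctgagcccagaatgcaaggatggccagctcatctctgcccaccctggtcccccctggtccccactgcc
Scn11a: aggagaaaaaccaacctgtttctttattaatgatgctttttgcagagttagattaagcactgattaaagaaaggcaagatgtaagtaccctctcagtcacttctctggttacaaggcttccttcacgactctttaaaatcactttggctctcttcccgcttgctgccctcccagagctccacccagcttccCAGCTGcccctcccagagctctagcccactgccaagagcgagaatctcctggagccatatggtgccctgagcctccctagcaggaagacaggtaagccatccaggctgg
The Scn7a window held 1 E-box and 1 GC box, the Scn11a window 1 E-box, and the Scn4a window none of the 3 motifs. The 3 genes thus shared no motif of this set. RefSeq promoters were matched for 30 of the 40 channel genes, with 41 windows in all. The E-box was in 13 of these 41 windows (31.7%) and in 16.3% of the 32851 promoters of all genes. The GC box was in 16 (39%, beside 35.7%) and the TATA box in 2 (4.88%, beside 13.6%). A match says only that these letters are present.

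Scn4a, the sodium channel pore of skeletal muscle, had few counts: 3, 1, 7 and 5 in WT and 64, 78, 32 and 27 in Emb knockdown. In CPM, WT libraries had 3.86, 1.15, 5.33 and 7.03, and Emb knockdown libraries 42.6, 41.4, 17.3 and 16.9. No WT library reached the minimum count of 10. The filter asks for 4 libraries above 6.71 CPM of the library total, which all 4 Emb knockdown libraries met and 2 WT libraries did; the gene was thus tested because of the group in which it was high, and its test and lack of overlap are given as a description. The groups did not overlap, and all WT libraries were at or below 0.664 times background while Emb knockdown libraries were at 1.99 to 7.19 times. Its edgeR log2 fold change, the most positive of the family, was 2.74 ± 0.72 (95% interval 1.18 to 4.31; adjusted p = 0.294), and DESeq2 gave an adjusted p of 0.00327. The estimate stayed between 2.51 and 3.12 when each library was left out. When all libraries were thinned to equal depth, Scn4a had too few counts to be tested. Skeletal muscle markers (5 genes) summed to 26.7 to 79.3 CPM in WT and 45.1 to 84.6 CPM in Emb knockdown, and no estimate among them passed the adjusted p. Acta1, the skeletal muscle actin gene, was at 17.2 ± 10.5 and 26.4 ± 14.5 CPM (log2 fold change 0.60), above the background mark in 3 WT and 4 Emb knockdown libraries, and its highest library was Emb knockdown replicate 1 at 46.6 CPM. Of the myosin genes Myh1 and Myh4 the estimates were −1.20 and 0.44. The muscle creatine kinase gene Ckm lay between 0 and 7.72 CPM. Their part in the result was not tested.

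Scn11a encodes a persistent-current channel of sensory and enteric neurons. It had 12.9, 6.90, 22.8 and 7.03 CPM in WT and 38.0, 14.3, 25.4 and 35.1 CPM in Emb knockdown. The groups overlapped at 1 knockdown library, replicate 2, and the log2 fold change was 1.16 ± 0.63 (edgeR adjusted p = 0.444). Scn10a, another sensory neuron channel, also on chromosome 9, had 18.01, 12.6, 21.3 and 14.1 CPM in WT and 8.66, 20.1, 31.3 and 15.7 CPM in Emb knockdown (log2 fold change 0.20 ± 0.59), a difference smaller than the spread between libraries.

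The 4 other sodium channel genes clustered with Scn7a on chromosome 2 had estimates between −0.62 and 0.21. Scn1a, the pore of many inhibitory neurons, had 16.7, 5.75, 16.0 and 8.43 CPM in WT and 4.00, 14.8, 13.0 and 6.27 CPM in Emb knockdown (log2 fold change −0.30 ± 0.67). Scn2a, a pore of unmyelinated axons, had 20.6, 21.8, 10.7 and 16.9 CPM in WT and 17.3, 21.7, 19.99 and 21.3 CPM in Emb knockdown (0.21 ± 0.53). For both genes the groups overlapped throughout. Scn3a, prominent in developing neurons, had 6.43, 5.75, 12.2 and 44.97 CPM in WT and 7.99, 8.48, 13.5 and 14.4 CPM in Emb knockdown (−0.62 ± 0.75, and 0.50 without WT replicate 4). Scn9a, a pore of peripheral sensory and autonomic neurons, had 18.01, 17.2, 21.3 and 5.62 CPM in WT and 6.66, 10.1, 15.7 and 11.3 CPM in Emb knockdown (−0.51 ± 0.62). These 4 genes passed the background mark in no library of either group. On chromosome 15, Scn8a, the main pore of axon initial segments and nodes, had 38.6, 39.1, 92.0 and 66.1 CPM in WT and 55.3, 21.2, 169 and 72.7 CPM in Emb knockdown (0.43 ± 0.72). The groups overlapped, with Emb knockdown replicate 3 the highest library and replicate 2 the lowest. Adjusted p-values from edgeR for these 5 genes were between 0.761 and 0.909.

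None of the sodium channel beta subunit genes was called. Scn2b (beta2) had 11.6, 3.45, 11.4 and 28.1 CPM in WT and 10.7, 6.89, 9.19 and 16.3 CPM in Emb knockdown (log2 fold change −0.33 ± 0.70). Scn4b (beta4) had 11.6, 1.15, 5.33 and 2.81 CPM in WT and 11.99, 1.59, 10.3 and 2.51 CPM in Emb knockdown (0.33 ± 0.92). Both overlapped between groups. Scn3b (beta3) did not reach the count filter, with 5, 3, 1 and 0 counts in WT and 10, 16, 26 and 16 in Emb knockdown. The groups did not overlap, though narrowly: the highest WT library was at 6.43 CPM and the lowest Emb knockdown library at 6.66 CPM. With at least 10 counts asked for in at least 4 libraries, which only Emb knockdown libraries had, its edgeR log2 fold change was 1.85 ± 0.94 (adjusted p = 0.425). With no filter it was 2.10 ± 1.21 (edgeR adjusted p = 0.477). As CPM, the Scn3b means were 2.66 ± 2.92 (WT) and 9.80 ± 3.15 (knockdown; SD, n = 4 per group), and no library of either group passed the background mark.

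**Figure D2:**
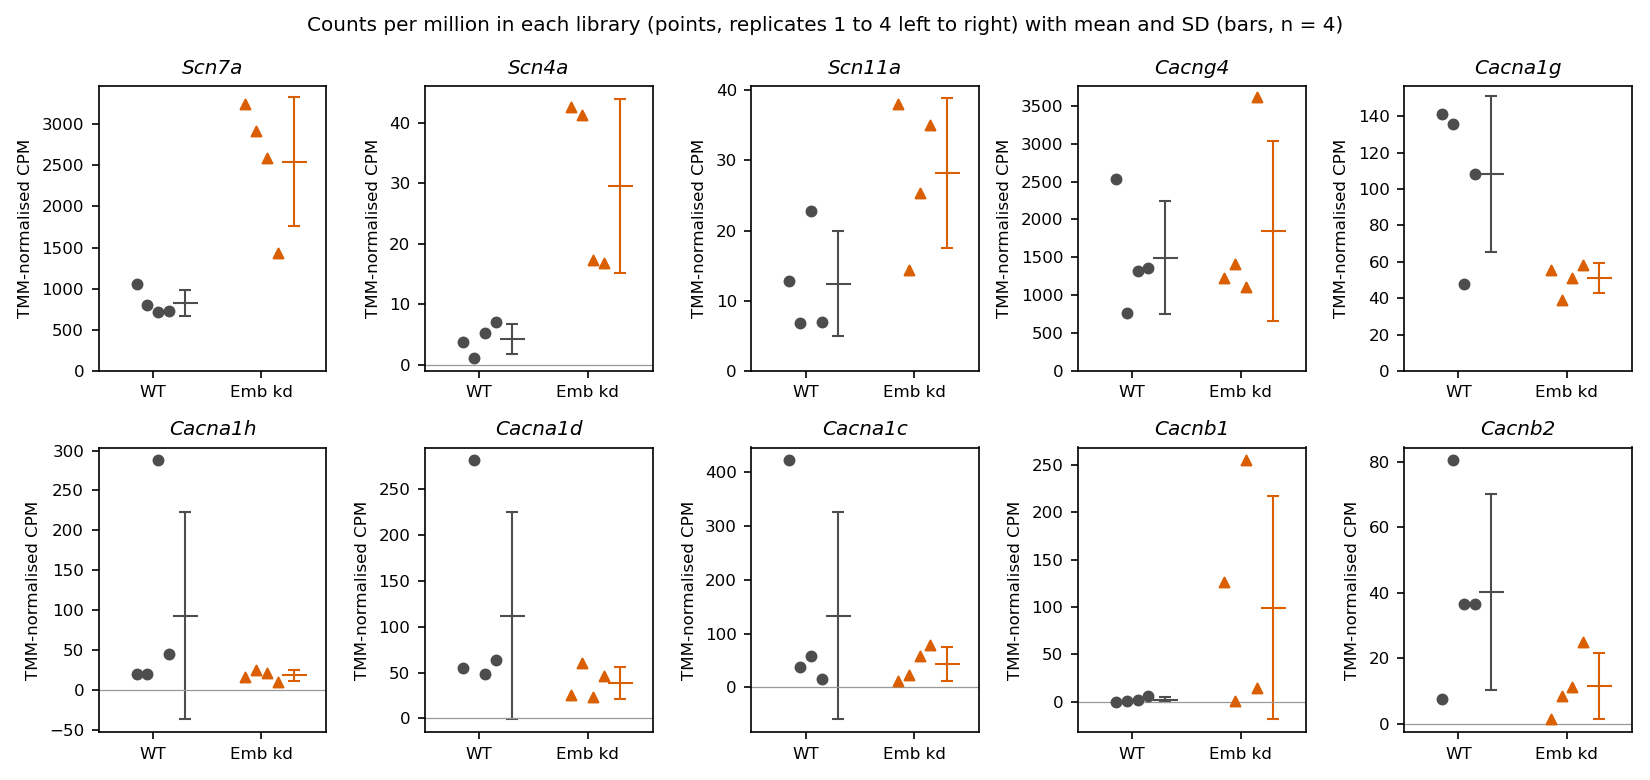
TMM-normalised CPM of 10 channel genes in each library (points, replicates 1 to 4 from left to right), with the mean and SD of each group (n = 4; a bar may run below 0). Scn7a and Scn4a separate the groups, and in Cacna1h, Cacna1d and Cacna1c 1 WT library stands far above the other 3.

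All 3 T-type calcium channel genes, whose pores open at small depolarisations and support pacing and burst firing, had negative estimates; none was called, and Cacna1i turned positive when libraries were scaled to receptor genes, with limma voom, and without WT replicate 4. Summed, they were at 231 ± 73.9 CPM in WT (lowest 187) and 93.9 ± 7.83 CPM in Emb knockdown (highest 105). Without Cacna1h, which 1 WT library led, the sums were 138 ± 56.9 and 75.7 ± 13.9 CPM and the groups overlapped. Cacna1g, the only calcium channel pore above background in every library, had 142, 136, 47.9 and 108 CPM in WT and 55.3, 39.2, 51.3 and 58.3 CPM in Emb knockdown. Of the WT libraries 3 lay above all Emb knockdown libraries and replicate 3 lay among them. Its log2 fold change was −1.08 ± 0.60 (edgeR adjusted p = 0.455), between −1.28 and −0.86 when each library was left out. Cacna1h had 20.6, 19.5, 288 and 44.97 CPM in WT and 16.7, 25.4, 21.6 and 9.40 CPM in Emb knockdown, so WT replicate 3 decided its mean. The log2 fold change was −2.35 ± 0.93 (95% interval −4.38 to −0.31; unadjusted p = 0.0275, adjusted p = 0.324 by edgeR) and −0.57 without that library. Exons of Cacna1h overlap the antisense gene Tpsg1, which had 22 counts in WT replicate 3, 14 in WT replicate 4 and at most 4 in the others. Cacna1i had 36.0, 32.2, 6.09 and 43.6 CPM in WT and 16.0, 24.9, 19.99 and 37.6 CPM in Emb knockdown (−0.25 ± 0.65).

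Of the 4 L-type genes, which carry the long-lasting current of muscle, endocrine cells and neuronal cell bodies, Cacna1c and Cacna1d were each led by 1 WT library. Cacna1c, the main smooth muscle and cardiac pore, had 422, 37.9, 58.6 and 15.5 CPM in WT and 11.99, 23.9, 58.4 and 79.6 CPM in Emb knockdown. Its log2 fold change was −1.62 ± 1.04 (edgeR adjusted p = 0.517), and 0.26 without WT replicate 1. Cacna1d, which opens at lower voltages, had 55.3, 282, 47.9 and 63.2 CPM in WT and 25.98, 59.9, 23.2 and 46.4 CPM in Emb knockdown. Without WT replicate 2 its log2 fold change of −1.52 ± 0.76 (edgeR adjusted p = 0.409) became −0.44. Its exons overlap the antisense gene Chdh, with 46, 24, 2 and 67 counts in WT and 3, 24, 34 and 43 in Emb knockdown; the sources used here do not give the strand setting of the counting. Cacna1s, the skeletal muscle pore, had 21.9, 41.4, 23.6 and 16.9 CPM in WT and 11.99, 22.3, 34.6 and 36.3 CPM in Emb knockdown (0.02 ± 0.58). Cacna1f, the retinal pore, had 4 to 7 counts in WT and 8 to 35 in Emb knockdown and was not tested.

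Genes of the P/Q, N and R types, the pores of transmitter release, showed no difference beyond the spread between libraries. Cacna1a (P/Q type) had 19.3, 19.5, 47.2 and 78.7 CPM in WT and 18.7, 39.2, 36.2 and 30.7 CPM in Emb knockdown (log2 fold change −0.40 ± 0.63). Cacna1b (N type) had 12.9, 28.7, 21.3 and 11.2 CPM in WT and 36.0, 27.6, 17.8 and 30.7 CPM in Emb knockdown (0.59 ± 0.56). Cacna1e (R type) had 37.3, 9.20, 29.7 and 97.0 CPM in WT and 35.3, 49.3, 58.4 and 39.5 CPM in Emb knockdown (0.08 ± 0.69). Their summed level was 103 ± 58.5 CPM in WT and 105 ± 11.9 CPM in Emb knockdown (SD, n = 4 each), and edgeR adjusted p-values were 0.8289, 0.682 and 0.976.

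Among the alpha2delta genes, of which Cacna2d1 and Cacna2d2 encode the gabapentin-binding forms, 3 of 4 estimates were negative and none was called; with scaling to receptor genes Cacna2d3 turned to 0.10. Cacna2d1 had 34.7, 13.8, 14.5 and 11.2 CPM in WT and 4.66, 8.48, 17.3 and 13.2 CPM in Emb knockdown (log2 fold change −0.76 ± 0.66, and −0.22 without WT replicate 1). All 4 WT libraries but only 2 Emb knockdown libraries met the filter's 6.71 CPM of the library total. Cacna2d1 was thus tested because of the group in which it was high, and its test is given as a description. Cacna2d2, the gene with the positive estimate, had 12.9, 17.2, 18.3 and 23.9 CPM in WT and 42.0, 13.8, 18.4 and 32.0 CPM in Emb knockdown (0.55 ± 0.58, and −0.22 with scaling by library totals). Cacna2d3 had 37.3, 60.9, 52.5 and 44.97 CPM in WT and 38.0, 12.7, 19.5 and 66.4 CPM in Emb knockdown (−0.52 ± 0.63). Cacna2d4, known from retina, had 19.3, 25.3, 22.1 and 4.22 CPM in WT and 3.33, 5.30, 18.4 and 17.5 CPM in Emb knockdown (−0.67 ± 0.76). All 4 overlapped between groups, and edgeR adjusted p-values ran from 0.640 to 0.761.

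Of the calcium channel beta genes, 2 of 4 were tested and neither was called. Cacnb2, the main cardiac beta subunit, had 7.72, 80.5, 36.5 and 36.5 CPM in WT and 1.33, 8.48, 11.3 and 25.1 CPM in Emb knockdown. The log2 fold change was −1.80 ± 0.87 (unadjusted p = 0.0615, adjusted p = 0.394 by edgeR), and −1.16 without WT replicate 2. All 4 WT libraries but only 2 Emb knockdown libraries met the filter's 6.71 CPM of the library total. Cacnb2 was thus tested because of the group in which it was high, and its test is given as a description. Cacnb4, a brain subunit, had 0, 5.75, 22.1 and 15.5 CPM in WT and 17.3, 12.7, 17.8 and 6.27 CPM in Emb knockdown (0.30 ± 0.89). Cacnb1, the skeletal muscle subunit, had 0, 1, 3 and 4 counts in WT and 190, 2, 471 and 23 in Emb knockdown, so that 2 knockdown libraries were high and 1 was within the WT range. Too few libraries reached the count minimum for Cacnb1 to be tested. With no filter, edgeR gave it a log2 fold change of 5.67 ± 1.06 and an adjusted p of 5.49e-05, the only channel gene called there, beside 1.88% of all 48530 genes. Cacnb3, the form common in neurons and smooth muscle, had 3 to 5 counts in WT and 3 to 27 in Emb knockdown and was not tested.

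Cacng4, a TARP gene whose product escorts AMPA receptors and is not regarded mainly as a calcium channel subunit, was the most abundant member per kilobase and did not differ between groups beyond their spread. It had 2533, 762, 1324 and 1355 CPM in WT and 1230, 1414, 1111 and 3614 CPM in Emb knockdown, with means of 1494 ± 745 and 1843 ± 1188 (SD, n = 4 each). Emb knockdown replicate 4 stood above all others and the remaining 3 knockdown libraries lay inside the WT range. The log2 fold change was 0.30 ± 0.66 (95% interval −1.13 to 1.74; edgeR adjusted p = 0.884), −0.23 without that library and −0.38 with scaling by library totals. Its neighbours on chromosome 11 were far lower. Cacng5 had 15.4, 23.0, 13.7 and 44.97 CPM in WT and 14.7, 11.7, 15.1 and 13.8 CPM in Emb knockdown (−0.80 ± 0.59, and −0.26 without WT replicate 4), and Cacng1, the skeletal muscle gamma subunit, had 1 to 8 counts in WT and 0 to 10 in Emb knockdown. The other gamma genes were also below the filter: Cacng2, the stargazin gene, had 2 to 34 counts in WT and 7 to 58 in Emb knockdown. Counts of Cacng3 were 0 to 3 and 0 to 16, of Cacng6 0 to 3 and 1 to 15, of Cacng7 0 to 11 and 3 to 10, and of Cacng8 3 to 14 and 5 to 12. Their sums over the 8 libraries were 154 for Cacng2, 40 for Cacng3, 29 for Cacng6, 51 for Cacng7 and 61 for Cacng8.

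Sodium channel genes had a median log2 fold change of 0.20 (7 of 13 positive) and calcium channel genes of −0.52 (6 of 17 positive), beside 0.04 for all 11353 genes. These medians cover only the members that passed the count filter and have no test. Of these, Scn4a (positive) and Cacna2d1 and Cacnb2 (both negative) passed it through the group in which they were high. The signs depend on the scaling: by library totals, where the median of all genes was −0.67, they were −0.45 and −1.27, and by receptor genes, where it was 0.64, they were 0.75 and 0.10. Relative to the median of all genes, sodium genes stood at 0.16 and calcium genes at −0.56, and at 0.22 and −0.60 by library totals. The sign of the relative sodium value was not stable. It was −0.018 with limma voom, −0.085 with ribosomal RNA genes left out and −0.24 without Emb knockdown replicate 3. The relative calcium value was negative in every run, but ran from −0.77 to −0.086 when a library was left out. With no filter on low counts it was −0.33, over 26 genes. Without WT replicate 4 the calcium median was −0.00422, over 20 genes rather than 17. Pore-forming genes had a median of −0.25 (9 of 19 positive) and auxiliary genes of −0.52 (4 of 11 positive), at −0.85 and −1.27 by library totals and 0.36 and 0.10 by receptor genes. With no filter, over 20 genes each, they were 0.12 and 0.21, beside 0.25 for all genes. The auxiliary median thus depended on which members the filter kept. By subunit type the medians were 0.20 for sodium alpha (10 tested), −0.33 for sodium beta (3), −0.40 for alpha1 (9), −0.60 for alpha2delta (4), −0.75 for calcium beta (2) and −0.25 for gamma (2).

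In every library but WT replicate 2, 1 gene held most of each family's counts. Scn7a took 44.8% to 83.8% of all sodium channel counts in WT and 84.8% to 93.8% in Emb knockdown, with WT replicate 2 the lowest. Summed sodium channel CPM was 1248 ± 375 (WT) and 2834 ± 809 (Emb knockdown; SD, n = 4 per group). Cacng4 took 46.9% to 73.2% of calcium channel counts in WT and 60.2% to 85.1% in Emb knockdown, again with WT replicate 2 the lowest. Calcium channel genes without it summed to 758 to 929 CPM in WT (834 ± 77.1) and 419 to 736 CPM in Emb knockdown (580 ± 136). Without Cacna1c, Cacna1d and Cacna1h as well, each led by 1 WT library and left out after their values were seen, the sums were 394 to 634 CPM (496 ± 107) and 310 to 633 CPM (480 ± 133), and the groups overlapped; no test was run on these sums.

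**Figure D3:**
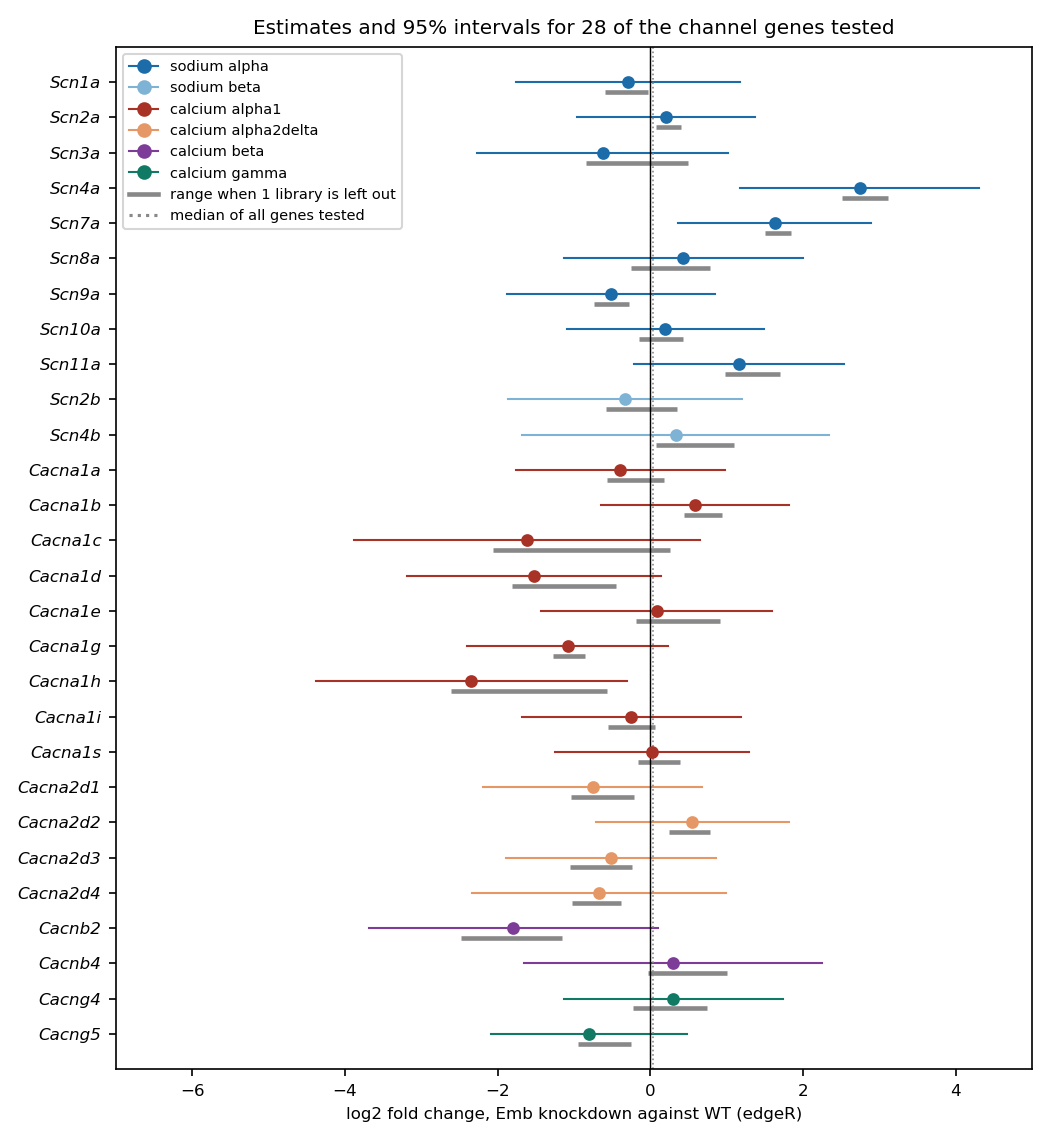
Log2 fold change of Emb knockdown against WT (edgeR) for 28 of the 30 channel genes tested, coloured by subunit type, with 95% intervals; grey bars show the range of estimates when 1 library at a time is left out, and the dotted line the median of all genes (0.04). The intervals of Scn4a, Scn7a and Cacna1h exclude 0 before adjustment, and the grey bar of Cacna1c spans −2.05 to 0.26.

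The share of members led by 1 library was not above that of all genes. In 9 of the 30 genes tested, 1 WT library held over 50% of the summed WT CPM, beside 37.2% of all genes, and in 3 of 30, 1 Emb knockdown library did, beside 32.1% of all genes. Exons of 11 of the 40 members overlap another annotated gene, antisense in 10.

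Genes for proteins that anchor, traffic or modulate these channels, or that belong to related cation channels, showed no called difference either. Of 42 such genes listed, 41 were in the table and 32 were tested. None passed the adjusted p with edgeR, 2 had an unadjusted p under 0.05, both higher in Emb knockdown (13.3% of all genes had such a p, 8.64% on the higher side). Of the estimates 10 were positive and 22 negative, beside 48.4% negative over all genes, and their median was −0.26. Both turned on 1 library. Calm2, a calmodulin gene, had 3.86, 6.90, 15.2 and 7.03 CPM in WT and 17.99, 2.12, 5.94 and 5156 CPM in Emb knockdown (a log2 fold change of 7.26 ± 2.31, with an edgeR adjusted p of 0.302). Sptbn1, a spectrin of the membrane skeleton, had 65.6, 55.2, 21.3 and 7.03 CPM in WT and 869, 54.6, 63.2 and 69.5 CPM in Emb knockdown (2.82 ± 1.14, and 0.75 without Emb knockdown replicate 1). Cabp1, a calcium-binding protein that modulates L-type and P/Q-type channels, had a log2 fold change of −2.35 ± 1.08, which was −0.83 without WT replicate 2. Camk2d, a calmodulin-dependent kinase, had one of 1.84 ± 0.85, which was 0.97 without Emb knockdown replicate 4.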

How the data were processed

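RNA-seq libraries of sorted mouse colon cells (4 WT, 4 Emb knockdown) were analysed from 1 table of counts per gene that the authors deposited, whole numbers with no normalization. Per the submitters' processing notes, the tool cutadapt and the build mm10 were employed. For the aligner, counting tool and strand setting: not given in the sources used here. Gene positions and exon lengths came from GENCODE release M21 (GRCm38), which held 52133 of the 55414 identifiers. Genes were filtered with filterByExpr (minimum count 10, minimum total 15), scaled with TMM and tested on all 8 libraries with the quasi-likelihood test of edgeR 4.0.16 in R 4.3.3, with group as the only term. Adjustment was by Benjamini-Hochberg over 11353 genes, with a threshold of 0.05; SE came from the F statistic. DESeq2 1.42.0, limma 3.58.1 voom, other scalings and filters, thinning to equal depth and leaving out each library were alternatives. Reads were amplified and carry no molecular identifiers, so they do not count independent molecules. The rule for naming genes covered every member, though single values are given for 38 of 40 (28 of the 30 tested); a few listed genes are not reported here, but class counts, sums and medians of the members include them; of the partner genes it took the 4 with the smallest p and the 2 with the highest mean CPM. Scn7a, Scn4a and Scn11a were chosen for their promoters after their values were seen. The members and lists were chosen with earlier results of these data known.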

Additional observations from a re-analysis of the deposited data

Results flagged for a closer look

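In 6 of 56 groups of 4 libraries (28 tested channel genes in WT and in Emb knockdown), 1 library lay far from the other 3 by Dixon's criterion at the 95% level; chance alone marks about 1 group in 20, and the same criterion marked 12.7% of 22706 such groups over all genes tested (11.4% in WT, 14.01% in Emb knockdown). Of these, 5 were in WT and 1 in Emb knockdown, and all were high. In WT replicate 1, Cacna1c was at 422 CPM (others 15.5 to 58.6) and Cacna2d1 at 34.7 CPM (others 11.2 to 14.5). In WT replicate 2, Cacna1d was at 282 CPM (others 47.9 to 63.2). WT replicate 3 had 288 CPM of Cacna1h (others 19.5 to 44.97), and WT replicate 4 had 44.97 CPM of Scn3a (others 5.75 to 12.2). In Emb knockdown, Cacng4 was at 3614 CPM in replicate 4 (others 1111 to 1414). The marked libraries differed from gene to gene: each WT replicate was marked at least once, and of the Emb knockdown replicates only number 4 was.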

How the results depend on the processing

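No channel gene passed the adjusted p with edgeR under TMM, and the count stayed at 0 when each library was left out in turn. With DESeq2, 683 genes passed, 2 of them channel genes (Scn4a, Scn7a); with no filter on low counts 910 passed, with 1 channel gene (Cacnb1) and 1 partner gene. Library totals alone gave 2 genes, neither a channel gene. Channel genes with an unadjusted p under 0.05 numbered 3, 5 with DESeq2, 7 by library totals, 5 with no filter and 2 to 6 when a library was left out, the highest without WT replicate 1. Over all genes, the share of those with an unadjusted p under 0.05 whose estimate was positive was 65.1% by TMM, 18.04% by library totals and 93.6% by receptor genes.

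The sodium median was −0.45 by library totals, 0.75 by receptor genes, −0.051 with ribosomal RNA genes left out, 0.44 with no filter, and −0.24 to 0.32 when a library was left out (negative only without Emb knockdown replicate 3). The calcium median was −1.27, 0.10 and −0.081 by library totals, by receptor genes and with no filter, and −0.78 to −0.00422 when a library was left out. For pore-forming genes the values were −0.85, 0.36 and 0.12, and −0.22 to 0.19 when a library was left out. For auxiliary genes they were −1.27, 0.10 and 0.21, and −0.81 to 0.27 when a library was left out. Some of these medians cover different genes. With ribosomal RNA genes left out, 12 sodium genes were covered rather than 13, with 6 positive rather than 7 and 6 negative in both. With no filter the medians covered 14 sodium, 26 calcium, 20 pore-forming and 20 auxiliary genes, rather than 13, 17, 19 and 11. Leaving out a library also changed the set. A shift between such medians is thus not by itself a change in single genes. Other causes of these shifts were not tested.

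Of 271 single-gene values under other alternatives, 24 changed sign. By library totals these were Cacna1b at −0.20, Cacna1e at −0.53, Cacna1s at −0.60, Cacna2d2 at −0.22, Cacnb4 at −0.50, Cacng4 at −0.38, Scn10a at −0.44, Scn2a at −0.45, Scn8a at −0.19 and Scn4b at −0.38. By receptor genes they were Cacna1a at 0.17, Cacna1i at 0.36, Cacna2d3 at 0.10, Scn1a at 0.29, Scn9a at 0.056 and Scn2b at 0.28. Voom gave Cacna1i at 0.087 and Cacna1s at −0.044. Cacna1s was also at −0.0047 with DESeq2 and with its size factors, at −0.0018 with at least 10 counts in at least 4 libraries, and at −0.36 after thinning, where Cacna1e was at −0.029. Leaving out a library changed the sign in 11 genes: estimates ran over −0.57 to 0.18 for Cacna1a, −2.05 to 0.26 for Cacna1c, −0.19 to 0.91 for Cacna1e, −0.55 to 0.066 for Cacna1i, −0.16 to 0.39 for Cacna1s, −0.027 to 1.00 for Cacnb4 and −0.23 to 0.74 for Cacng4. They ran over −0.15 to 0.43 for Scn10a, −0.85 to 0.50 for Scn3a, −0.25 to 0.78 for Scn8a and −0.58 to 0.34 for Scn2b. In 10 of these 28 genes, Scn7a among them, no alternative run changed the sign.

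Whether replicate numbers pair the libraries was not settled. Deviations of same-numbered libraries correlated only weakly, at 0.0113 to 0.0337. Of 8 libraries, 5 correlated best with their own number, out of 4 candidates each in the other group. With the replicate block, 918 genes had an unadjusted p under 0.05 and 0 passed the adjusted p; the channel genes under 0.05 were Scn4a, Scn7a and Cacnb2, and Cacna1s was at −0.027. Depth limits all genes of low count: Scn4a had 1 to 7 counts in the WT libraries.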
